A study of Homo sapiens with 5 samples.

Results

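The genes for the microtubule-associated proteins (MAPs) MAP1A, MAP1B, MAP1S, MAP2, MAP4, MAP6, MAP7 and MAPT were followed across 5 RNA-seq libraries of HEK293T cells. The members were taken by gene symbol, and all 8 had a row, out of 19716 genes with a read in at least 1 library. The set was selected on earlier results: MAP1A was chosen for its difference between the dCas9 libraries and the control, so values and calls from this contrast are given as a description, with no p-value, and support nothing.

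HEK293T cells descend from human embryonic kidney and express the large T antigen of SV40. In 4 libraries the cells had been transfected with 5 sgRNAs against the uPA promoter and with 1 fusion construct, either dCas9-BFP-DNMT1, its counterpart dCas9-BFP-DNMT3A, the similar dCas9-BFP-DNMT3B, or dCas9-BFP-EGFP. In these constructs a nuclease-dead Cas9 and a blue fluorescent protein are joined to the catalytic domain of a DNA methyltransferase or to EGFP, which does not methylate DNA, and the fusion is expressed from a PGK promoter. The study reported raised methylation of the uPA promoter with the DNMT3A and DNMT3B fusions, but not with the DNMT1 or EGFP fusion. The 5th library came from cells given the plasmid pUC19, with neither dCas9 nor sgRNA. All cells received 1 ug of plasmid with X-tremeGENE 9 and were harvested 48 hours later. The labels state sorting of BFP-positive cells for every group, yet pUC19 encodes no BFP, so sorting and the presence of a fusion cannot be told apart in the comparisons with pUC19. Each group had 1 library, and all 4 comparisons with pUC19 share the same control library, so no difference has a replicate check.

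Microtubules are hollow polymers of tubulin, and structural MAPs bind along them, stabilise or bundle them and alter the traffic of motor proteins. MAP2, MAP4 and MAPT (tau) share a related microtubule-binding repeat domain, while MAP1A, MAP1B and MAP1S form a family whose products are cleaved into heavy and light chains. MAP1A, MAP2, MAP6 and MAPT are best known from neurons, MAP1B from growing axons, and MAP4 is the widespread MAP of cells outside the nervous system.

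The libraries held 26250000 to 36140000 reads assigned to genes (rounded to the nearest 10000), with pUC19 the deepest at 1.38 times the smallest. Markers of HEK293-like and kidney epithelial cells summed to 657 TPM (reads per gene length, scaled to the same sum in each library) in pUC19 and to 708 to 868 TPM in the fusion libraries, with PAX8 under 0.1 TPM throughout. VIM made most of this sum, with a mean of 516 TPM over the 5 libraries. Without VIM the sum was 219 TPM in pUC19 and 230 to 269 TPM in the fusion libraries. All 16 neuronal markers had a row and 11 reached 1 TPM in some library. Their sum was 389 TPM in pUC19 against 207 to 255 TPM in the fusion libraries. NEFM, a neurofilament subunit, made most of this difference, with 193 TPM in pUC19 and 34.3 to 60.2 TPM elsewhere, and NEFL had 90.7 TPM against 28.9 to 35.6 TPM. SNAP25 (1.70 TPM in pUC19 and 0.0858 to 0.342 TPM in the fusion libraries) and GAD1 (9.46 against 5.70 to 7.63 TPM) were also lower in all 4 fusion libraries. So were RBFOX3, STMN2 and NEFH, the last 2 under 1 TPM throughout. Higher in all 4 fusion libraries were SYT1, INA (39.0 TPM in pUC19 and 55.4 to 85.4 TPM in the fusion libraries) and SYP (21.2 against 30.5 to 36.1 TPM). GAP43 (1.55 against 2.69 to 3.02 TPM) and SLC17A7 (2.58 against 3.73 to 5.40 TPM) were higher as well. TUBB3 and DCX were higher in some fusion libraries and lower in others. ELAVL3 and ELAVL4, also on the neuronal list, stayed under 0.1 TPM in all libraries. Glial, fibroblast, leukocyte and endothelial markers summed to 0.579 to 15.2 TPM per list, with CD3E, COL1A2, CDH5, VWF and TEK under 0.1 TPM. The part of these markers in the MAP differences was not tested. In such bulk libraries, fewer cells of a type and less RNA per cell cannot be told apart.

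In GRCh37, the MAP1A gene (NCBI gene 4130) spans bases 43803156 to 43823818 of chromosome 15, plus strand. RefSeq gives MAP1A 2 start sites, 1 of them near the annotated start of TP53BP1, which is transcribed in the other direction. The 250 bases before each start are shown because MAP1A had the largest ratio to pUC19 of the 8 genes in every fusion library, and that before MAP1S because MAP1S was the only member called between the fusion libraries. Capitals mark GGGCGG, the GC box, on either strand (CCGCCC on the strand shown, with overlapping matches written as 1 run). The sequences are from RefSeq (GRCh38.p14 table) and each matched GRCh37 once, at the plus-strand coordinates given.
MAP1A upstream start, chr15:43802902-43803151: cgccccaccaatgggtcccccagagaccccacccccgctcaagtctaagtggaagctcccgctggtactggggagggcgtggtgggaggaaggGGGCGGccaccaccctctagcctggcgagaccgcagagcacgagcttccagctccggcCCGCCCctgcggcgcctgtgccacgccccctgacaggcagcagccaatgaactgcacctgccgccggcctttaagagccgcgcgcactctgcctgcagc
MAP1A downstream start, chr15:43809556-43809805: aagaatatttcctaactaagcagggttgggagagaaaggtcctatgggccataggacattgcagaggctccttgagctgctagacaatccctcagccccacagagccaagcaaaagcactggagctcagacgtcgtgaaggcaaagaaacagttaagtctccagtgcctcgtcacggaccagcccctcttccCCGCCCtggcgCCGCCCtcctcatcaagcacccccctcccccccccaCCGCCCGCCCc
MAP1S, chr19:17830039-17830288: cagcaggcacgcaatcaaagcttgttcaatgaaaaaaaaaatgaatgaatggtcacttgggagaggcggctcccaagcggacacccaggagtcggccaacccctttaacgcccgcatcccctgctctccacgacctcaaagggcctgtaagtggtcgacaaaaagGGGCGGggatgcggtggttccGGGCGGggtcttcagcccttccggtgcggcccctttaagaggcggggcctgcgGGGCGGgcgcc

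The upstream MAP1A window held 2 GC boxes, had a GC content of 70.4% and 18 CpG sites, and shared 25 bases with the TP53BP1 gene. The downstream MAP1A window, in an intron of longer MAP1A transcripts, held 4 GC boxes, with 59.6% GC and 9 CpG sites. The MAP1S window held 3 GC boxes, with 61.6% GC and 18 CpG sites, and 134 of its bases lie in exons of other MAP1S transcripts. Over all 35116 RefSeq windows of this length the medians were 58% GC and 11 CpG sites, and 42.6% of the windows held at least 1 GC box on either strand. In 6 of the members RefSeq gave 14 windows, without an entry for MAP6 and MAPT. None of the 14 held an E-box CACGTG (6.34% of all windows), a CRE TGACGTCA (1.65%) or a TGATGNAA match (3.14%), and TATAAA (10.7%) was found only in the 2 MAP1B windows. The windows of the MAP4 and MAP7 starts that are rich in GC, at 76.8% and 77.6%, held 3 GC boxes each, as did the MAP1B window at its canonical start. A match describes the letters alone.

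MAP1A, which encodes a MAP of mature neurons and its light chain LC2, had 1181 reads in pUC19 and 3319, 4416, 4079 and 3532 reads with the DNMT1, DNMT3A, DNMT3B and EGFP fusions. Its level was 7.21 TPM in pUC19 (95% exact Poisson interval 6.80 to 7.63). It was 26.1 TPM with DNMT1 (25.2 to 27.0), 33.7 TPM with DNMT3A (32.7 to 34.7), 35.2 TPM with DNMT3B (34.2 to 36.3) and 30.4 TPM with EGFP (29.4 to 31.5). The 4 fusion libraries were thus all above the control and close to each other, with a mean of 31.4 ± 4.06 TPM (SD over 4 different constructs). The ratio to pUC19 was 4.22 for EGFP, 3.62 for DNMT1, 4.68 for DNMT3A and 4.89 for DNMT3B. These intervals, like all others here, cover counting error only. Reads covered 95.95% of the MAP1A transcript in pUC19 and 98.48 to 100% in the fusion libraries.

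The order of MAP1A among the fusions ran from DNMT3B over DNMT3A and EGFP to DNMT1. The DNMT3B level was 1.04 times that of DNMT3A (95% exact binomial interval of the TPM ratio 1.00 to 1.09), and the test on shares of reads, with an adjusted p of 1.0, did not separate them. The TPM scale differed from the share of reads by up to 1.08 times between libraries, so differences of this size depend on the scale. DNMT3A was 1.11 times EGFP (1.06 to 1.16), and EGFP was 1.17 times DNMT1 (1.11 to 1.22). These differences exceeded counting error but fell short of the 2-fold limit for a call.

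MAP1B, the MAP of growing axons with the light chain LC1 (chromosome 5, 71403061 to 71505392, plus strand), was also higher in every fusion library. It had 30.1 TPM in pUC19, 57.4 TPM with DNMT1, 58.7 TPM with DNMT3A, 73.5 TPM with DNMT3B and 81.2 TPM with EGFP. The ratio to pUC19 was 2.69 for EGFP (2.61 to 2.78), 2.44 for DNMT3B (2.36 to 2.52), 1.95 for DNMT3A (1.88 to 2.01) and 1.91 for DNMT1 (1.84 to 1.97). The highest MAP1B level was in the EGFP fusion library and the lowest in pUC19. DNMT1 and DNMT3A differed by less than counting error (DNMT3A over DNMT1 1.02, interval 0.992 to 1.05), and EGFP was 1.11 times DNMT3B (1.08 to 1.14).

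MAP1S, the short member of the MAP1 family that is found in many tissues and linked to autophagy (chromosome 19, 17830051 to 17845322, plus strand), split the fusion libraries. It had 27.5 TPM in pUC19, 34.2 TPM with EGFP and 42.5 TPM with DNMT1, but 79.1 TPM with DNMT3A and 96.4 TPM with DNMT3B. The DNMT3A and DNMT3B libraries were both above the other 3, with no overlap of counting intervals. Against pUC19 the ratio was 1.24 for EGFP (1.15 to 1.34), 1.54 for DNMT1 (1.44 to 1.66), 2.87 for DNMT3A (2.70 to 3.06) and 3.50 for DNMT3B (3.29 to 3.73). The MAP1S transcript had reads over 100% of its length in every library.

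MAP4, the widespread MAP (chromosome 3, 47892180 to 48130762, minus strand), moved the other way. It had 133.9 TPM in pUC19, 97.2 TPM with EGFP, 86.9 TPM with DNMT1, 80.8 TPM with DNMT3B and 73.4 TPM with DNMT3A. All 4 fusion libraries were below the control, at 0.726 times its level for EGFP (0.705 to 0.747), 0.649 for DNMT1 (0.630 to 0.668), 0.604 for DNMT3B (0.585 to 0.622) and 0.548 for DNMT3A (0.531 to 0.565). None of these ratios reached the 2-fold limit. The deposited length of MAP4 was 6337 bases against 9232 for the canonical transcript in GENCODE v44, so its TPM depends on the transcript chosen by the authors.

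MAP7 (ensconsin), which recruits the motor kinesin-1 to microtubules (chromosome 6, 136663419 to 136871957, minus strand), had 21.5 TPM in pUC19, 20.3 TPM with EGFP, 27.4 TPM with DNMT1, 29.5 TPM with DNMT3A and 34.6 TPM with DNMT3B. Reads covered 89.67% of the MAP7 transcript in pUC19 but 69.94 to 77.32% in the fusion libraries. The part of this shift in the TPM of MAP7 was not tested. The EGFP library differed from pUC19 by less than counting error (ratio 0.944, interval 0.872 to 1.02), and the DNMT1, DNMT3A and DNMT3B libraries were 1.27 to 1.61 times the control. MAPT, which encodes the axonal protein tau (chromosome 17, 43971893 to 44105700, plus strand), had 9.86 TPM in pUC19, 10.2 TPM with DNMT1, 9.33 TPM with EGFP, 8.74 TPM with DNMT3A and 7.43 TPM with DNMT3B. Its ratio to pUC19 ranged from 0.753 with DNMT3B (0.679 to 0.834) to 1.04 with DNMT1 (0.947 to 1.14), and the DNMT1 and EGFP levels did not differ from pUC19 beyond counting error.

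MAP6, which makes microtubules stable in the cold (chromosome 11, 75297963 to 75380083, minus strand), and MAP2, the MAP of dendrites (chromosome 2, 210288771 to 210598871, plus strand), were near the lower end of detection. MAP6 had 31 to 36 reads per library and 0.520 TPM in pUC19 against 0.577 to 0.714 TPM in the fusion libraries, and every interval of its ratio to pUC19 included 1. MAP2 had 31 reads in pUC19 and 35, 46, 55 and 44 reads with DNMT1, DNMT3A, DNMT3B and EGFP, or 0.206, 0.299, 0.382, 0.517 and 0.413 TPM in that order. The DNMT3B ratio of MAP2 was 2.51 (1.59 to 4.04), and no difference in MAP2 between fusion libraries passed the adjusted threshold at this depth. Reads covered 20.45 to 32.19% of the MAP2 transcript.

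A gene was called in a pair of libraries when the exact conditional binomial test gave an adjusted p of at most 0.001 and TPM + 0.1 differed at least 2-fold. Against pUC19, 1 member was called with DNMT1 (MAP1A), where 5.16% of all genes tested were called in either direction. With DNMT3A 2 members were called (MAP1A and MAP1S), beside 9.36% of all genes. With DNMT3B 4 were called (MAP1A, MAP1B, MAP1S and MAP2), beside 8.76%, and with EGFP 2 (MAP1A and MAP1B), beside 5.70%. All of these calls were for higher levels in the fusion library. Nothing is read from these counts, since the members were chosen on this contrast. The median log2 ratio of the 8 members was 0.37, 0.55, 0.85 and 0.35 for DNMT1, DNMT3A, DNMT3B and EGFP, beside -0.14, -0.03, -0.02 and -0.00452 over all genes of at least 1 TPM. The sets are unlike, since the members include MAP2 and MAP6, which were under 1 TPM, and nothing is read from these medians either. With TMM scaling, which moved the DNMT1 median of all genes to -0.03, MAP1B was also called with DNMT1 and DNMT3A. MAP2 with DNMT3B was no longer called with a pseudocount of 1 TPM or with libraries thinned to the smallest total.

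**Figure D1:**
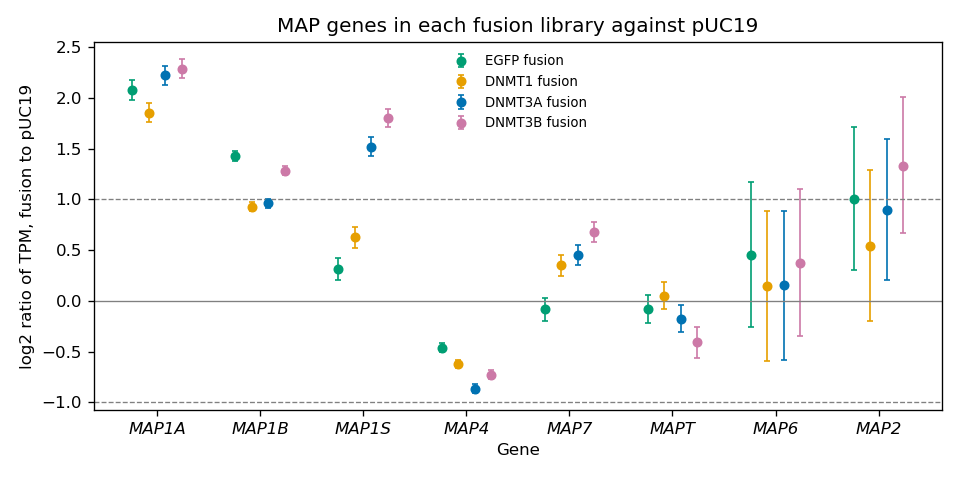
log2 ratio of TPM in each fusion library to pUC19 for the 8 MAP genes, with 95% exact binomial intervals (counting error only) as bars and dashed lines at a 2-fold change. MAP1A lies above the upper line for all 4 fusions, MAP1S for DNMT3A and DNMT3B only, and MAP4 lies between 0 and the lower line for all 4.

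The summed level of the 8 genes was 231 TPM in pUC19, 251 TPM with DNMT1, 284 TPM with DNMT3A, 329 TPM with DNMT3B and 274 TPM with EGFP. MAP4 made up 58.0% of this sum in pUC19 but 24.6 to 35.5% in the fusion libraries. The share of MAP1A was 3.12% in pUC19 and 10.4 to 11.9% in the fusion libraries. The most abundant member was MAP4 in pUC19, DNMT1 and EGFP, and MAP1S in DNMT3A and DNMT3B.

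**Figure D2:**
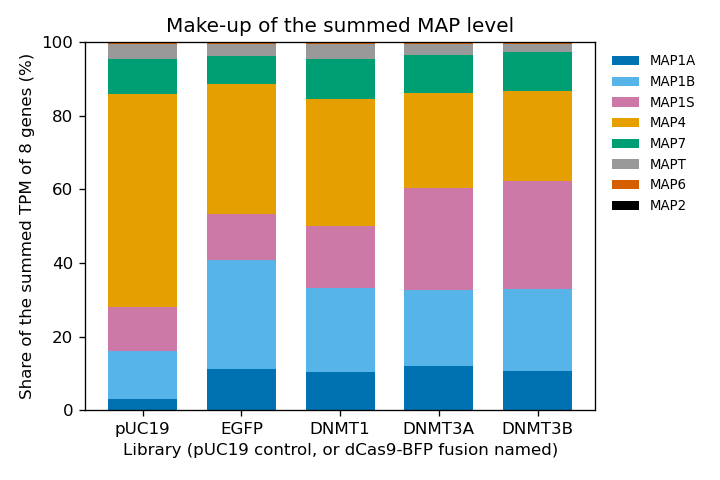
Share of each gene, in percent, in the summed TPM of the 8 MAP genes, with 1 stacked bar per library. MAP4 takes 58.0% of the pUC19 bar and 24.6 to 35.5% of the fusion bars, and the MAP1S segment is widest with DNMT3A and DNMT3B.

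The fusion libraries were then compared with each other, a contrast without pUC19 that did not choose the members. No member was called between DNMT1 and EGFP (1.44% of all genes called), between DNMT3A and DNMT3B (0.215%) or between DNMT1 and DNMT3A (3.59%). Only MAP1S was called in the other comparisons. It was 2.27 times higher with DNMT3B than with DNMT1 (2.14 to 2.40), where 3.54% of all genes were called. It was 2.31 times higher with DNMT3A than with EGFP (2.16 to 2.47), where 3.97% were called, and 2.82 times higher with DNMT3B than with EGFP (2.64 to 3.01), where 3.50% were called. Between DNMT3A and DNMT1 it was 1.86 times higher (1.75 to 1.97), short of the limit. This test compares libraries, not conditions.

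DNMT3A and DNMT3B, the de novo methyltransferases, were also compared as a pair with DNMT1 and EGFP in a quasi-likelihood fit in edgeR, in which 2 different constructs stand on each side and are not replicates of a condition. MAP1S had a mean of 87.7 TPM against 38.4 TPM (n = 2 and 2 libraries), a log2 difference of 1.13 ± 0.17 (SE) with an edgeR adjusted p of 0.00750. In this fit 11.0% of 15332 genes passed an adjusted p of 0.05, and 1 of the 8 members, all of which passed the filter on low counts, is close to that share. The transcript of MAP1S has a GC content of 68.0%, the highest of the 8. With each library's GC trend as an offset the difference was 0.89, with an edgeR adjusted p of 0.00441, and with the GC trend removed the 2-fold call between DNMT3A and EGFP was lost. Without the DNMT3A library the edgeR adjusted p of MAP1S was 0.0803, and without DNMT3B it was 0.0867.

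The other members did not pass in this fit. The log2 difference was 0.24 ± 0.12 for MAP1A (edgeR adjusted p = 0.212) and -0.31 ± 0.12 for MAP4 (0.115). MAP7 (0.36 ± 0.19) and MAPT (-0.33 ± 0.16) had edgeR adjusted p values of 0.243 and 0.211. For MAP1B (-0.12 ± 0.16), MAP2 (0.29 ± 0.34) and MAP6 (-0.09 ± 0.35) the edgeR adjusted p values were 0.667, 0.615 and 0.890. Without the DNMT1 library, which left 1 library on its side, the log2 difference was -0.32 for MAP4, 0.67 for MAP7 and -0.19 for MAPT. Without EGFP it was -0.29 for MAP4, 0.10 for MAP7 and -0.46 for MAPT. These genes were picked for this after their values were seen.

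**Figure D3:**
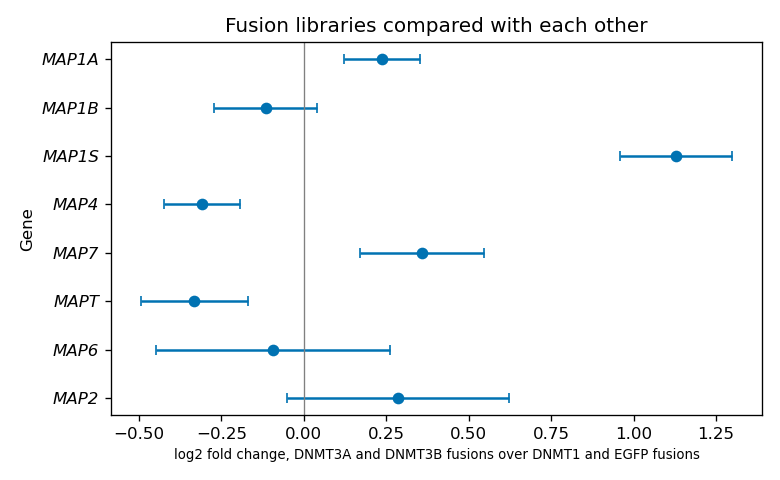
log2 fold change of the DNMT3A and DNMT3B fusion libraries over the DNMT1 and EGFP fusion libraries from the edgeR fit, with bars of 1 SE, for each MAP gene. MAP1S lies at 1.13, and the other 7 genes lie between -0.33 and 0.36.

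The genes whose pattern over the 5 libraries was most like that of MAP1A were ranked among 10929 genes with a mean of at least 5 TPM, by the root mean square difference of log2(TPM + 0.1) centred on each gene's mean. GPR19, an orphan G protein-coupled receptor, came closest (0.0867), with 1.55 TPM in pUC19 and 5.79, 8.11, 9.27 and 7.16 TPM with DNMT1, DNMT3A, DNMT3B and EGFP. IL20RB, a receptor subunit for interleukins of the IL-20 group, followed (0.192), with 1.36 TPM in pUC19 and 4.13 to 8.06 TPM in the fusion libraries. DYRK1B, a protein kinase, had the same rounded distance at a higher level, with 19.9 TPM in pUC19 and 52.5 to 66.6 TPM in the fusion libraries. TNRC18P1 (0.193) is a pseudogene that may share reads with its parent gene, so its level is uncertain. ZBTB37, a zinc finger gene, closed the 5 nearest (0.205). Of the members, MAP1B ranked 103rd, MAP1S 749th and MAP4 10056th in this order.

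The neighbours of MAP1A did not share its pattern, which is given as a description, since MAP1A was chosen for its difference from pUC19. Of 4 genes annotated with a start within 100 kb of that of MAP1A, 3 had a row. TP53BP1, a factor in the repair of DNA double-strand breaks, starts 0.23 kb upstream on the other strand, inside the upstream MAP1A window printed above. It had 33.1 TPM in pUC19 and 23.6, 28.8, 27.8 and 24.9 TPM with DNMT1, DNMT3A, DNMT3B and EGFP, so each fusion library was lower for TP53BP1 and higher for MAP1A. PPIP5K1, an inositol phosphate kinase, had 16.8 TPM in pUC19 and 9.23 to 15.2 TPM in the fusion libraries. CKMT1B, a mitochondrial creatine kinase with a near-identical copy, CKMT1A, had 18.9 TPM in pUC19 and 11.5 to 18.5 TPM. None of the 3 neighbours was called against pUC19 in any fusion library, where 5.16 to 9.36% of all genes were called. Nothing is read from so few genes.

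Other genes that act on microtubules were taken from 6 lists with 95 gene symbols, of which 89 had a row. The symbols include older and current names of the same gene, so a symbol without a row need not be a gene without one. Against pUC19, 1 of them was called with EGFP (5.70% of all genes called), 1 with DNMT1 (5.16%), 3 with DNMT3A (9.36%) and 5 with DNMT3B (8.76%). CDK5R2, an activator of the kinase CDK5, was called lower with DNMT1. EML2, DCLK1 and VASH1 were called lower with DNMT3A, and EML2, CDK5 and VASH1 with DNMT3B, where CAMSAP3 and MARK2 were called higher. FIGN, a severing enzyme, was called higher with EGFP. These genes were named after their values were seen, and no gene of the lists was called in all 4 fusion libraries. VASH1, which removes the terminal tyrosine of tubulin, had 26.9 TPM in pUC19 and 11.3 to 15.7 TPM in the fusion libraries. MARK2, a kinase that releases MAPs from microtubules, had 45.5 TPM in pUC19 and 56.4, 84.3, 93.7 and 57.4 TPM with DNMT1, DNMT3A, DNMT3B and EGFP.

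By list, no spindle MAP of 10 was called in any comparison with pUC19 or passed the edgeR fit. Of 19 other MAP-named and related structural genes tested in the fit of DNMT3A and DNMT3B against DNMT1 and EGFP, 2 passed as higher and 1 as lower. Of 17 tested genes for proteins that bind microtubule ends, 1 was higher and 3 lower, and of 12 tested destabilising and severing genes 1 was higher and 1 lower. Of 9 tested kinases of MAPs 2 were higher and 1 lower, and of 16 tested genes for tubulin modification 3 were lower. In all, 6 were higher and 9 lower of 83 tested, beside 11.0% of all genes in either direction. The genes with a 2-fold difference were CDK5R2 (log2 difference 2.53 ± 0.54, edgeR adjusted p = 0.0209) and KATNAL2, a katanin-like gene (-1.03 ± 0.28, edgeR adjusted p = 0.0454). Both were of low level, with 0.128 to 0.932 TPM for CDK5R2 and 1.46 to 3.70 TPM for KATNAL2.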

How the data were processed

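The study sequenced poly(A) RNA on an Ion Proton from 5 HEK293T libraries, 1 per group, with groups taken from the sample titles. The authors removed low-quality, adaptor and short reads (under 30 nt), mapped what remained to RefSeq RNA of hg19 with tmap with up to 3 mismatches, and used unique reads. The tmap version, the strand setting and the RefSeq release are not given in the sources used here. The deposited read counts are whole numbers without normalization. The deposited TPM values are counts per gene length scaled to a fixed sum, and were recomputed from the counts. The deposited coverage in percent was taken as the covered part of each transcript. Unique alignment lowers genes with near-identical copies. Genes without a row were set to 0.

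The members and gene lists were chosen with earlier results of these data known. Pairs of libraries were compared by a two-sided exact conditional binomial test on read totals with Benjamini-Hochberg adjustment over all genes with a read in either library. Calls used the thresholds of the study (adjusted p of at most 0.001, 2-fold) with a pseudocount of 0.1 TPM, which understates changes of low genes. No p is given against pUC19. DNMT3A and DNMT3B were compared with DNMT1 and EGFP by edgeR (version 4.0.16, R 4.3.3), with TMM, filterByExpr and the quasi-likelihood test at an adjusted p under 0.05. DESeq2 (version 1.42.0) was an alternative. Positions are from GENCODE v44 lifted to GRCh37. Intervals are 95% exact. 3 reads correspond to 0.083 to 0.114 RPM. Named genes were the members, the 5 genes most like MAP1A, its neighbours within 100 kb, and list genes called in all 4 fusion libraries or past the edgeR fit with a 2-fold change. The markers named and the list genes called in fewer than 4 fusion libraries were named after their values were seen. The scripts were tested on simulated data. No protein sequence was used here.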

Additional observations from a re-analysis of the deposited data

Results flagged for a closer look

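MAP1S differed between the DNMT3A and DNMT3B fusion libraries and the DNMT1 and EGFP fusion libraries, by 1.13 on the log2 scale, in a fit that tested this difference itself (edgeR quasi-likelihood test, adjusted p = 0.00750, higher in both DNMT3A and DNMT3B than in either of the others). In this fit 11.0% of 15332 genes passed, and 1 of the 8 members is close to that share. The constructs on a side are not replicates of a condition, and GC content, at 68.0% for MAP1S, was highest among the 8 genes. With each library's GC trend as an offset in this fit the difference was 0.89. With the GC trend removed in the pairs of libraries, the 2-fold call of MAP1S between DNMT3A and EGFP was lost.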

How the results depend on the processing

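The counts of members called depended most on the spread assumed between libraries. With an assumed coefficient of variation of 0.2, the members called against pUC19 fell to 0 for DNMT1 and to 1 (MAP1A) for DNMT3A, DNMT3B and EGFP, and those between fusion libraries to 0. With TMM scaling, median-ratio scaling or the GC trend removed, 2 members were called with DNMT1 in place of 1, MAP1B being added. With these settings or the length trend removed, 3 were called with DNMT3A in place of 2, MAP1B again being added. When each library was left out of the edgeR fit in turn, the lone library on a side was assumed to vary like the others. The number of all genes passing changed strongly with the library left out, so counts of passing members are not read from these fits. The log2 difference of MAP1S was 1.26 without DNMT3A, 0.99 without DNMT3B, 1.37 without DNMT1 and 0.92 without EGFP. Of the 5 genes most like MAP1A, 2 were shared with the list made from a mean of at least 1 TPM. The cause of these changes was not tested. The log2 difference of MAP1S ranged from 0.89 to 1.37 over the alternatives, and its adjusted p from 9.98e-08 (DESeq2) to 0.0867 (edgeR). A test with equal TPM in place of equal shares of reads, chosen after seeing the data, left the counts as they were. No direction reversed for a called value. Of single-gene values, 363 kept their side of the threshold, 11 passed it under an alternative and 10 no longer did. Depth limits MAP2 and MAP6, with 31 to 55 reads per library. No paired analysis was possible because each group had 1 library.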
